A study of Mus musculus with 6 samples.

Results

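The cells described here are intermediate urothelial cells of the mouse bladder that stood closest to basal cells in their balance of keratins to uroplakins. They were non-cycling cells with over 500 genes, a summed count of at least 20 for Krt5, Krt7, Krt8, Krt15, Krt18 and Krt19, and at least 1 UMI (unique molecular identifier, a count of 1 captured transcript) of Ugt2b34. Further count limits kept out stromal, immune, endothelial, cycling, superficial and basal cells. They required a keratin sum over 2 times that of Col1a1, Col1a2, Col3a1 and Dcn, no Ptprc or Pecam1, at most 2 UMIs of Top2a, Mki67, Birc5 and Ube2c, fewer than 5 UMIs of Acer2 plus Krt20, and at most 1 UMI of Krt14, Col17a1 and Dlk2 together. The 21318 cells that remained were ranked in each library on log((Krt5 + Krt15 + 1)/(Upk2 + Upk3a + 1)), cut into 3 equal parts, and the upper part (here the keratin-high group, upper in the plots) was kept. Its members were thus chosen by measured counts of these genes, which are described without a test. It held 7104 of 56629 barcodes in the series (1248, 1300, 942, 1064, 1589 and 961 in healthy 1, healthy 2, acute 1, acute 2, chronic 1 and chronic 2, an order used for all lists of 6 values below). The lower part of the same ranking (the uroplakin-high group, 7104 cells, most uroplakin for their keratin) and 1139 non-cycling basal cells (at least 2 UMIs of Krt14, Col17a1 and Dlk2) served for comparison.

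All mice were wild-type C57BL/6 aged 8 weeks, and droplet-based single-cell RNA was read from the peeled mucosal layer after collagenase digestion. Healthy mice were untreated, acute mice were taken 48 hours after cyclophosphamide (CPP), and chronic mice had received 4 rounds of CPP over 11 days. There were 2 libraries per condition. The study describes several mice of both sexes per condition, calls the 2 libraries of a condition biological replicates and says that the samples were handled in batches. Which mice and which batch belong to a library is not given in the sources used here, so p-values measure the spread between libraries, and batch and condition cannot be told apart.

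The urothelium is a layered epithelium in which basal cells rest on the basement membrane, intermediate cells lie above them, and superficial umbrella cells face the urine. Basal cells are known for Krt5, Krt14 and hemidesmosome genes, whereas uroplakins, the membrane plaque proteins of the urine-facing surface, rise with maturation toward umbrella cells. CPP is a chemotherapeutic drug whose metabolite acrolein reaches the bladder in urine and injures this epithelium.

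The libraries held 54604109 to 111985678 UMIs, with 5348 to 15062 barcodes and medians of 5530 to 9138 UMIs per cell. Pairs of libraries shared 0.673 to 2.281% of the barcodes of the smaller one. Acute 2 stood apart in its stromal content, with 4888 stromal cells, and its urothelial cells also carried more Car3 and Cxcl14 RNA than those of other libraries. The healthy libraries carried the most globin RNA, and summed erythroid markers reached 677 and 448 CPM (counts scaled to a common library total, with TMM normalization) in the keratin-high group, against 0.908 to 55.3 CPM elsewhere.

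Intermediate cells made up 67.2 and 55.3% of urothelial cells in the healthy libraries, 49.1 and 52.4% after acute CPP, and 50.8 and 60.4% after chronic CPP. Their 95% Wilson intervals, which cover counting error only, were 65.9 to 68.4, 54.1 to 56.4, 47.8 to 50.4, 51.1 to 53.6, 49.8 to 51.8 and 59 to 61.8%. The healthy libraries, with a mean of 61.2 ± 8.42% (SD, n = 2), did not overlap with the acute ones at 50.8 ± 2.29% (SD, n = 2), but the exact two-sided permutation test gave p = 0.333, the smallest value that 2 libraries against 2 allow. The chronic mean was 55.6 ± 6.76% (SD, n = 2), with exact permutation p = 0.667 against healthy and against acute. Urothelial cells here include cycling and superficial cells, so the share also depends on these classes. Cells outside both classes numbered 5073 and 6636 of 5576 and 7058 urothelial cells in healthy libraries. They numbered 3867 and 5012 of 5756 and 6099 after acute CPP, and 8137 and 3841 of 9379 and 4773 after chronic CPP. Of them, 3745 and 3900, 2828 and 3194, and 4768 and 2883 were intermediate. Taken as a share of the cells outside both classes, intermediate cells overlapped between healthy, acute and chronic libraries. The part of the excluded classes was not tested. The score of the last cell kept was 0.251, 0.647, 0.606, 0.818, 0.134 and 0.693. Chronic 1 and healthy 1 had the lowest limits, and the libraries of each condition overlapped with those of the others. Cells just above the limit held means of 14.56 to 21.32 UMIs of Krt5 and Krt15 and 6.83 to 17.16 UMIs of Upk2 and Upk3a, and cells just below it held 16.04 to 22.25 and 8.85 to 16.08, so the cut fell within a continuous range with no gap on either side.

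Keratin-high cells were shallower than uroplakin-high cells of the same library. Their median counts were 9566.5, 7626, 8121, 9747, 5399 and 8211 UMIs, against 14993.5, 10870, 10374.5, 12882, 7575 and 9669 UMIs in the uroplakin-high group. The uroplakin-high group was 1.18 to 1.57 times deeper in 6 of 6 libraries (exact sign-flip permutation test, two-sided, p = 0.03125, the smallest that 6 libraries allow). The median mitochondrial share of UMIs was 1.989 to 3.375% in the keratin-high group and 2.311 to 4.168% in the uroplakin-high group, and thinning to equal depth was run as an alternative. Levels are given as CPM of summed counts, so that each class was scaled to its own total.

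The genes of the ranking are given as a description. Krt15, a type I keratin of basal and lower epithelial layers (chr11:100131758-100135928, mm10), stood at 2987, 3272, 3810, 4037, 5684 and 3964 CPM in the keratin-high group, with a class mean of 3959 ± 940 CPM (SD, n = 6). The mean was 1202 CPM in the uroplakin-high group, 2591 in the middle group and 4142 in basal cells. Krt5, the type II keratin of the basal layer (chr15:101707070-101712898), followed the same order, with class means of 390, 681, 969 and 1081 CPM. The keratin-high means were 0.956 and 0.896 of the basal level for Krt15 and Krt5, which the ranking selected for. The rule limited the basal markers, and Krt14 averaged 3.33 CPM against 175 in basal cells, Col17a1 20.6 against 256, and Dlk2 8.52 against 137. In the uroplakin-high group they averaged 0.748, 2.37 and 0.821 CPM, below the keratin-high group in 6 of 6 libraries. Ugt2b34, a glucuronosyltransferase that marks intermediate cells, averaged 490 CPM in the keratin-high group, 569 in the uroplakin-high group and 185 in basal cells. The rule required it in the intermediate cells only.

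The 4 further markers had been proposed for these cells with the data in view, and they are described without a test. Cyp2f2, a cytochrome P450 that oxidizes small aromatic xenobiotics (chr7:27119909-27133660), stood at 121, 89.1, 68.7, 125, 111 and 58.5 CPM in the keratin-high group and at 10.3, 11.2, 7.49, 17.5, 15.2 and 6.92 CPM in the uroplakin-high group. The 2 sets did not overlap, and the log2 difference was 3.08 ± 0.08 (SE). Thinned to 2000 UMIs per cell, 6.16 to 12.8% of keratin-high cells held a Cyp2f2 UMI, against 0.624 to 2.17% of uroplakin-high cells and 0.375 to 2.46% of stromal cells, which should lack it. Without thinning, 19.9 to 35.0% of keratin-high cells held one, and thinning left out 1 keratin-high, 3 uroplakin-high and 466 stromal cells. The keratin-high share exceeded the stromal share of its own library in 6 of 6, whereas the uroplakin-high share exceeded it in 4 of 6, by most in acute 2 (2.17 against 0.474%), and lay below it in chronic 1 and chronic 2. Median depths before thinning were 5399 to 9747 UMIs in the keratin-high group and 2515 to 5057 UMIs in stromal cells.

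Krt4, a keratin of moist stratified epithelia (chr15:101918535-101924735), stood at 341, 378, 424, 241, 471 and 299 CPM in the keratin-high group and at 81.8, 79.7, 92.2, 60.2, 94.0 and 55.6 CPM in the uroplakin-high group, a log2 difference of 2.21 ± 0.05 (SE). After thinning, 19.6 to 32.2% of keratin-high cells and 4.71 to 9.89% of uroplakin-high cells held a Krt4 UMI, beside 2.08 to 5.51% of stromal cells. Aldh3a1, an aldehyde dehydrogenase that oxidizes lipid and xenobiotic aldehydes (chr11:61207537-61218421), stood at 276, 619, 465, 551, 1010 and 485 CPM against 81.7, 178, 124, 180, 351 and 140 CPM, a log2 difference of 1.73 ± 0.05 (SE). Chronic 1 was highest and healthy 1 lowest in both rank groups, and the within-library difference stayed between 1.52 and 1.90 on the log2 scale. Igfbp2, a secreted binding protein for insulin-like growth factors (chr1:72824503-72852474), stood at 1129, 2266, 980, 1964, 2437 and 1475 CPM against 564, 1165, 575, 1081, 1517 and 921 CPM, a smaller log2 difference of 0.83 ± 0.05 (SE) that was present in 6 of 6 libraries.

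**Figure D1:**
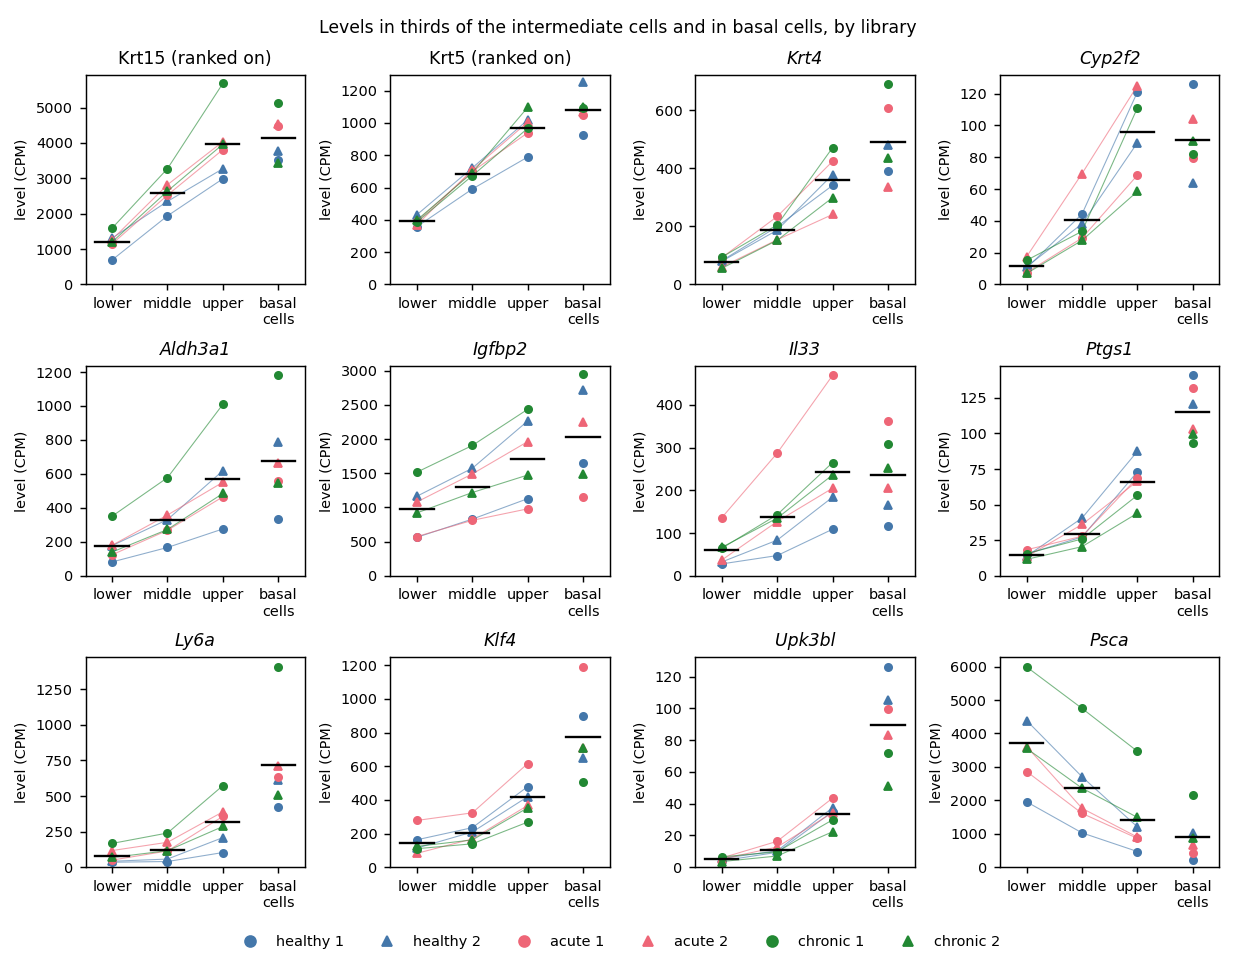
Level in CPM (linear axes from 0) of 12 genes in the uroplakin-high (lower), middle and keratin-high (upper) parts of the intermediate cells and in basal cells. Points are libraries, colored by condition, lines join the parts of 1 library, and black bars are class means. Krt15 and Krt5 were used for the ranking. Cyp2f2 and Il33 reach their basal-cell level in the keratin-high group (means of 95.7 against 91 CPM and 244 against 235 CPM), whereas Upk3bl and Ly6a rise further in basal cells.

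These genes were graded along the whole ranking and did not step up at the limit. When each library was cut into 9 equal parts, Cyp2f2, Krt4, Aldh3a1, Igfbp2 and Il33 fell in each successive part as averaged over libraries. The middle group was intermediate for all 4 markers in 6 of 6 libraries, at means of 40.4 CPM for Cyp2f2, 188 for Krt4, 329 for Aldh3a1 and 1305 for Igfbp2.

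**Figure D2:**
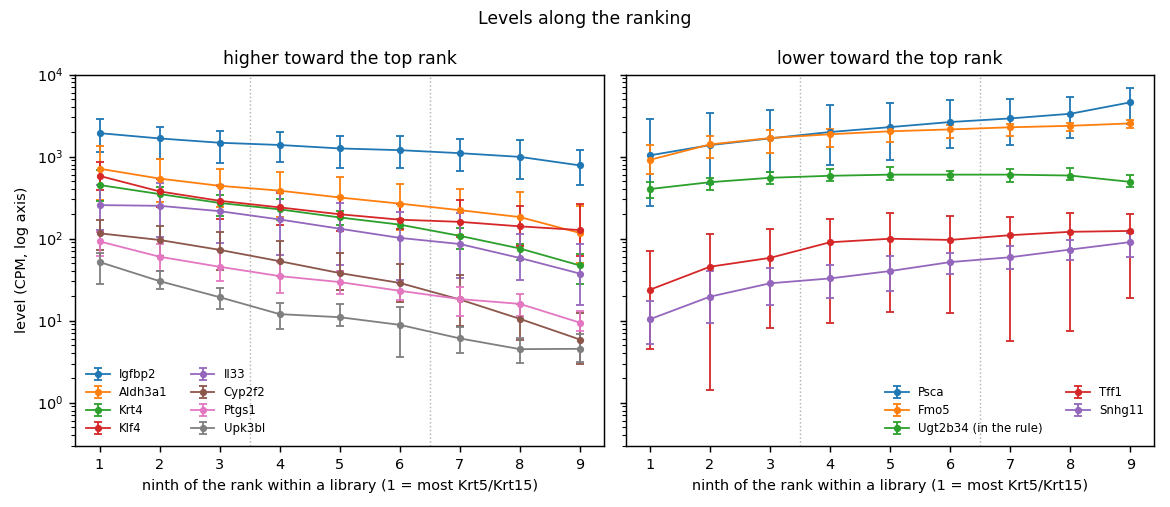
Mean level over 6 libraries (CPM, log axis) in each ninth of the ranking, with bars from the lowest to the highest library and dotted lines at the limits of the 3 parts. Genes on the left fall away from the top rank, genes on the right climb, and Ugt2b34, which the rule only required to be present, stays within a narrow range.

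To ask what else set the keratin-high group apart, genes outside the rule were compared between the rank groups with the library as a block. Of 11103 genes tested, 2480 (22.3%) were higher and 2318 (20.9%) lower in the keratin-high group by the quasi-likelihood test of edgeR, Benjamini-Hochberg adjusted at 0.05. DESeq2 called 30.9% in either direction, and 37% of the genes differed in the same direction in all 6 libraries. All genes were read in the same cells as the ranking genes, so these p-values state how steady a difference was over libraries and not that a gene is independent of the ranking. The share of calls over all genes was large, and member counts of gene lists below should be read against it. The counts also hold markers proposed with the data in view: Cyp2f2 and Aldh3a1 (detoxification), Krt4 (keratins) and Igfbp2 (IGF axis). The median log2 difference over all genes was 0.01.

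Among the largest rises outside the markers were an alarmin and prostaglandin genes. Il33, a nuclear cytokine that epithelia release on damage (chr19:29925114-29960718), stood at 109, 184, 469, 205, 265 and 236 CPM in the keratin-high group and 27.9, 32.4, 136, 37, 64.5 and 66.6 CPM in the uroplakin-high group. The keratin-high group was higher in each library, with a log2 difference of 2.08 ± 0.08 (SE, edgeR's quasi-likelihood test, adjusted p = 3.1e-14). Ptgs1, the constitutive cyclooxygenase that begins prostaglandin synthesis (chr2:36230426-36252272), stood at 73.1, 87.5, 68.9, 66.5, 56.6 and 44.0 CPM against 15.3, 13.8, 18.3, 13.5, 15.6 and 11.6 CPM (2.19 ± 0.09, adjusted p = 8.9e-14). Ptges, which makes prostaglandin E2 from the cyclooxygenase product, averaged 60.1 ± 9.47 against 15.5 ± 2.29 CPM (SD, n = 6 libraries; edgeR log2 difference 1.96 ± 0.10, adjusted p = 5.2e-12). All 3 rose in 6 of 6 libraries without overlap between the rank groups, except for Il33, whose uroplakin-high level in acute 1 exceeded the keratin-high level in healthy 1. Stromal cells held 35.4 to 129 CPM of Ptgs1 and 19.7 to 99.1 CPM of Il33 (CPM without TMM). The part of stromal RNA in these rises was not tested.

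Kcnn4, a calcium-activated potassium channel, averaged 88.0 ± 25.2 CPM in the keratin-high group and 21.0 ± 3.66 CPM in the uroplakin-high group (SD, n = 6 libraries; 2.07 ± 0.10 by edgeR, adjusted p = 4.5e-12). Rgs10, a GTPase activator that ends G protein signals, averaged 75.9 ± 19.3 and 17.6 ± 6.45 CPM (2.16 ± 0.13 by edgeR, adjusted p = 2.6e-11). Stromal cells held 48.3 to 159 CPM of Rgs10 (CPM without TMM). Gm12840, a predicted transcript of unassigned function, rose by 2.21 ± 0.10 on the log2 scale (edgeR, adjusted p = 3.8e-13), with levels that ranged from 24.9 CPM in acute 2 to 139 CPM in healthy 1.

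Genes linked to basal cells and epithelial stemness were higher in the keratin-high group, although the rule had removed cells with more than 1 UMI of the 3 basal markers. Within that limit these 3 markers were still higher in the keratin-high than in the uroplakin-high group in 6 of 6 libraries. The part of remaining basal-like cells in the rises below was not tested. Of 18 listed genes, 15 were tested, 13 rose and none fell, with a median log2 difference of 0.95. The study reports Ly6a, Klf4, Id3, Trf and Thbs1 of this list as high in its basal clusters of these same data. Their rise is therefore not independent of that report. Ly6a, a GPI-anchored surface protein used as a progenitor marker, stood at 103, 208, 357, 389, 573 and 286 CPM against 34.9, 41.8, 49.8, 117, 167 and 68.3 CPM (2.03 ± 0.10 by edgeR, adjusted p = 4.5e-12). Klf4, a zinc-finger transcription factor of epithelial barrier formation, stood at 479, 419, 616, 367, 268 and 353 CPM against 163, 114, 278, 82.5, 110 and 124 CPM (1.59 ± 0.09 by edgeR, adjusted p = 1e-11). The healthy libraries were lowest for Ly6a in the keratin-high group, chronic 1 was lowest for Klf4, and each library showed the rise. Along the ranking, Ly6a averaged 500, 271 and 189 CPM in the top 3 ninths.

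Trf, the iron carrier transferrin, rose by 1.49 ± 0.07, Thbs1, a matricellular glycoprotein, by 1.12 ± 0.10, and Id3, an inhibitor of helix-loop-helix transcription factors, by 0.95 ± 0.08 (edgeR log2 differences, adjusted p = 5.7e-13, 7.7e-09 and 2.7e-09). Cdh3, the cadherin of basal epithelial layers, averaged 8.32 against 1.95 CPM (2.11 ± 0.19), and Trp63, the transcription factor that maintains basal cells, rose by 0.60. Stromal cells of the same libraries held 1831 to 3482 CPM of Ly6a and 391 to 1754 CPM of Klf4 (CPM without TMM). Summed fibroblast markers, all 12 of them detected, stood at 493 to 1220 CPM in the keratin-high group and at 636 to 1315 CPM in the uroplakin-high group, and were lower in the keratin-high group in 6 of 6 libraries. Of these 12 markers, 1 passed the test in each direction, the complement gene C3 at 1.73 and Gsn at −0.38. Summed myofibroblast markers were higher in the keratin-high group in 6 of 6 libraries (167 to 682 against 80.3 to 528 CPM). Tpm2, a tropomyosin that is not restricted to muscle, averaged 173 against 60.1 CPM within that sum. Of these 9 markers, 7 were tested and 2 passed, Tpm2 at 1.53 ± 0.06 and Myl9 at 0.35 ± 0.14, and the part of stromal RNA in the rises was otherwise not tested.

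Adhesion to the basement membrane showed the same direction. Of 17 genes of integrins, laminins and plaque proteins, 13 rose, none fell, and the median was 0.66. Itga3, the laminin-binding integrin subunit, averaged 67.0 against 24.5 CPM (1.44 ± 0.11 by edgeR, adjusted p = 7.3e-10). Itgb4, the hemidesmosomal integrin, stood at 102, 115, 109, 69.8, 83.1 and 98.0 CPM against 39.6, 37.8, 42.5, 31.9, 43.0 and 38.6 CPM (1.3 ± 0.07, edgeR adjusted p = 8.1e-12), with no overlap between the rank groups. Its partner Itga6 rose by 0.90 ± 0.05 and Cd44, the hyaluronan receptor, by 0.97 ± 0.06.

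Most uroplakin and vesicle genes outside the ranking fell. Of 16 listed genes, 15 were tested, 11 fell and 1 rose, and the median was −0.29. Upk1a and Upk1b, the tetraspanin partners of the ranked uroplakins, averaged 1933 against 4228 CPM (−1.17 ± 0.06) and 875 against 1828 CPM (−1.08 ± 0.06). Snx31, a sorting nexin of uroplakin traffic, fell to 126 from 258 CPM (−1.04 ± 0.06). Upk3bl, a uroplakin-like gene, went the other way in each library, at 35.0, 37.5, 43.5, 34.3, 29.8 and 22.3 CPM in the keratin-high group and 4.02, 5.53, 5.84, 5.13, 6.5 and 3.56 CPM in the uroplakin-high group (2.73 ± 0.11 by edgeR, adjusted p = 7.6e-14).

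Of 12 genes listed as superficial markers, 11 were tested, 9 fell and 2 rose, with a median of −0.78. The 2 that rose, Gsdmc2 (1.42 ± 0.20) and Gsdmc3 (1.77 ± 0.20), encode neighbouring gasdermin C paralogs on chromosome 15, and reads could be split between such similar copies. Psca, a GPI-anchored protein of the Ly6 family that maturing urothelium makes in bulk, stood at 469, 1205, 862, 900, 3466 and 1490 CPM in the keratin-high group and at 1955, 4386, 2861, 3609, 5991 and 3552 CPM in the uroplakin-high group (−1.61 ± 0.11 by edgeR, adjusted p = 2.5e-10).

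The strongest falls among genes outside the rule included Snhg11, a non-coding small nucleolar RNA host (−1.95 ± 0.09), the predicted transcript Gm13398 (−1.84 ± 0.11), Galnt16, an enzyme that starts O-linked glycosylation (−1.65 ± 0.12), and Pdzk1ip1, a membrane protein of secretory epithelia (−1.46 ± 0.10). Fam25c fell by 1.54 ± 0.13 on the log2 scale, Uchl1, a neuronal-type deubiquitinase, by 1.3 ± 0.08, and Mfsd4, a transporter-like protein, by 1.28 ± 0.08. Rgs5 fell by 1.55 ± 0.13. All of these were lower in 6 of 6 libraries, with adjusted p of 8.7e-09 or less by edgeR. Apoc1 (−0.23 ± 0.07) and Abhd2 (−0.20 ± 0.06) were slightly lower, and were so in 4 of 6 libraries.

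**Figure D3:**
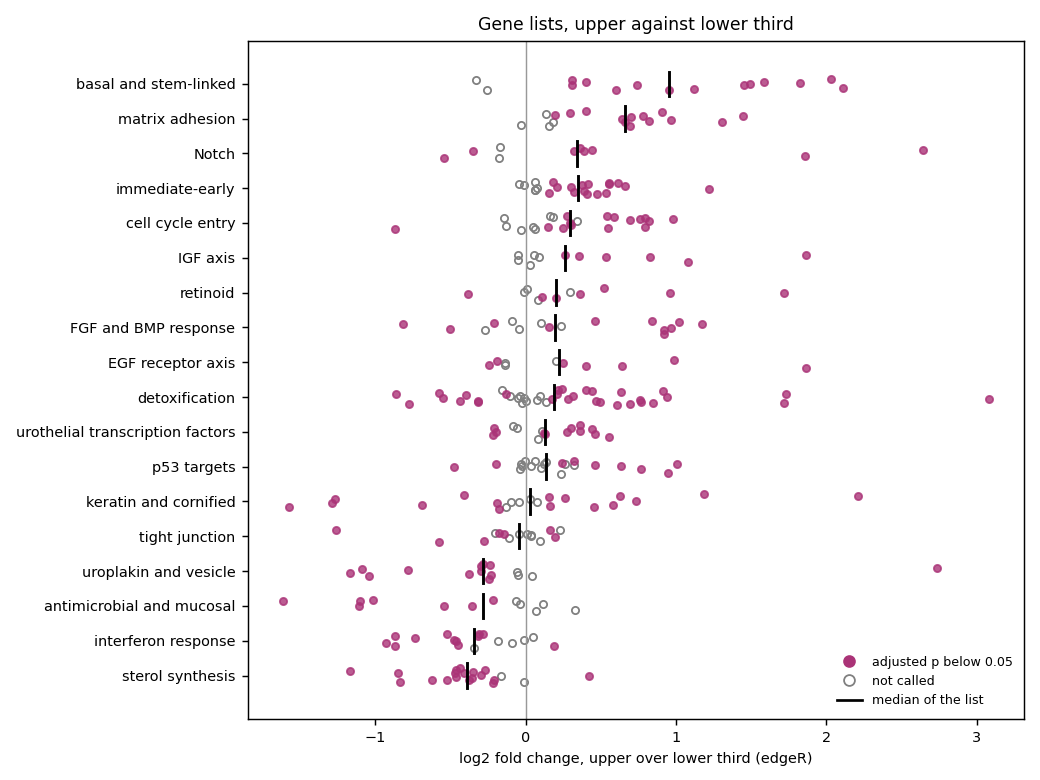
Log2 fold change of each tested member of 18 gene lists, keratin-high over uroplakin-high group (edgeR). Filled points passed the adjusted threshold, open points did not, and black bars are list medians. Adhesion and basal-linked genes lie to the right with medians of 0.66 and 0.95, sterol synthesis and interferon genes to the left with −0.39 and −0.34, and single genes such as Upk3bl leave their list.

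Enzymes that handle aldehydes and xenobiotics rose more often than they fell. Of 44 listed detoxification genes, 40 were tested, the markers Cyp2f2 and Aldh3a1 among them, 21 rose and 9 fell, with a median of 0.19. Over all genes 22.3% rose and 20.9% fell, so the falls of the list lay near the share over all genes. Besides Cyp2f2 and Aldh3a1, Aldh1a1, which oxidizes retinaldehyde, stood at 62.0, 79.0, 75.0, 82.3, 91.2 and 84.3 CPM against 18.8, 21.0, 21.9, 22.2, 36.3 and 25.1 CPM (1.72 ± 0.07 by edgeR, adjusted p = 1.5e-13). The rank groups did not overlap. Nqo1, a quinone reductase, rose by 0.85 and Gsr, which regenerates glutathione, by 0.69. Fmo5, a flavin monooxygenase, moved the other way, from 2455 ± 251 CPM in the uroplakin-high group to 1370 ± 321 CPM in the keratin-high group (SD, n = 6 libraries), as did Akr1b3 (−0.78) and Hmox1 (−0.57).

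The promoter sequences of the 2 genes with the strongest named rises of this group that the RefSeq table held are shown because both genes moved together across the ranking. RefSeq windows were found for 5 of 8 genes looked up (build GRCm38.p6, the assembly that mm10 denotes). The stretch upstream of the start and outside annotated exons, 5′ to 3′ on the plus strand, lay at chr7:27119705-27119908 for Cyp2f2 and at chr19:20601718-20601960 for Aldh1a1, at the second of its RefSeq starts.
Cyp2f2: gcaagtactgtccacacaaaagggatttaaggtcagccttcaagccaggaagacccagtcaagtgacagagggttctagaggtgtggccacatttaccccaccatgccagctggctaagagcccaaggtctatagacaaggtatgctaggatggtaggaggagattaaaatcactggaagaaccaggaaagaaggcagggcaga
Aldh1a1: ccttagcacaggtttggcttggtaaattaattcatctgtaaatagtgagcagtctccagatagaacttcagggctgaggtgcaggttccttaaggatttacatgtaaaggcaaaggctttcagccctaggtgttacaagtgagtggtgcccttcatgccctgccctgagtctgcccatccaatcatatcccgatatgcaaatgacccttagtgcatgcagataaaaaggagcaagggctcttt
No capitals appear because none of the 6 windows of the 5 genes held either motif searched on both strands, TGACNNNGC for the antioxidant response element and GCGTG for the Ah receptor core, which can overlap at GC. Over all 32851 RefSeq windows of 250 bases, 10.2% held the former and 28.2% the latter. A match or its absence in this window is a description of the letters only.

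Keratins and cornified-envelope genes moved in both directions. Of 28 listed, 21 were tested, the marker Krt4 among them, 9 rose and 7 fell, beside 22.3 and 20.9% over all genes. Krt13, the pairing partner of Krt4, rose by 1.19, and the desmosomal genes Dsg3 and Pkp1 by 0.74 and 0.58. The Sprr2 genes, small proline-rich cross-linked proteins with near-identical copies, fell, at −1.27 ± 0.11 for Sprr2f and −1.28 ± 0.13 for Sprr2b, and so did the trefoil peptide Tff1 (−1.57 ± 0.15). Of 15 tight junction genes tested, 5 fell and 2 rose, beside 20.9 and 22.3% over all genes. Cldn8 stood at −1.26 ± 0.07 and Cldn23 at −0.57 ± 0.06.

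Ligands of local signalling pathways were among the rises. In the Notch list, 10 of 16 genes were tested, 6 rose and 2 fell, beside 22.3 and 20.9% over all genes. The ligand Dll1 averaged 8.44 against 1.31 CPM (2.64 ± 0.19 by edgeR, adjusted p = 5.3e-10) and the ligand Jag2 26.9 against 7.41 CPM (1.86 ± 0.14, adjusted p = 8.7e-10), whereas the feedback target Nrarp fell by 0.54 ± 0.07. Jag2 was highest in acute 2, at 62.7 CPM, and lowest in chronic 1, at 11.9 CPM. Hes1, a Notch target and transcription factor, rose by 0.44 ± 0.06 in 5 of 6 libraries.

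Of 10 EGF receptor genes tested, 5 rose and 2 fell, beside 22.3 and 20.9% over all genes. Epgn rose by 1.86 ± 0.24 from a low level, Hbegf, a membrane-anchored ligand, averaged 872 against 452 CPM (0.98 ± 0.10), and Areg averaged 613 against 403 CPM (0.64 ± 0.06). Of 11 IGF genes tested, the marker Igfbp2 among them, 6 rose and none fell, and Igfbp3 averaged 33.5 against 9.39 CPM (1.86 ± 0.12). In the FGF and BMP list, 16 genes were tested, 8 rose and 3 fell. The receptor Fgfr2 rose by 0.84, and the feedback genes Dusp6, Etv5 and Smad7 rose by 0.97 ± 0.07, 0.92 ± 0.11 and 1.17 ± 0.09, whereas Bmp2 fell by 0.81. Of 11 retinoid genes tested, 6 rose, Rbp4 by 0.96 ± 0.11, and 1 fell.

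Of 16 urothelial transcription factors, 9 rose and 3 fell, all by small amounts. Klf5 rose by 0.56 ± 0.04 and Tbx3 by 0.36 ± 0.06, whereas Gata3, Grhl3 and Zfp750 fell by 0.22, 0.20 and 0.21. Of 22 immediate-early genes tested, 16 rose and none fell (median 0.35), led by Fosl1 at 123 against 54.3 CPM (1.22 ± 0.07), with Fosb and Jund at 0.62 ± 0.09 and 0.55 ± 0.06. Dissociation induces such genes, and its part in the difference was not tested. Of 12 heat shock genes 3 rose, Dnajb1 by 0.52 ± 0.06, and none fell, with a median of 0.01. The rises of this list lay near the 22.3% over all genes.

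Cells with more than 2 UMIs of Top2a, Mki67, Birc5 and Ube2c together had been removed from both rank groups. Within that limit, 14 of 23 genes of cell cycle entry and replication rose and 1 fell (median 0.29). The limit was a fixed count and keratin-high cells were shallower, and the part of remaining cycling cells was not tested. The replication helicase gene Mcm6 averaged 9.02 against 4.52 CPM and cyclin D1 (Ccnd1) rose by 0.59, whereas the kinase inhibitor Cdkn2b fell by 0.87 ± 0.07. Of 21 p53 targets tested, 7 rose and 2 fell, beside 22.3 and 20.9% over all genes. The cell cycle inhibitor Cdkn1a averaged 565 against 290 CPM (1.01 ± 0.07) and the BH3-only gene Pmaip1 113 against 66.9 CPM (0.77 ± 0.11).

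Sterol synthesis, the interferon response and mucosal defence were lower in the keratin-high group. Of 20 sterol genes, 17 fell and 1 rose (median −0.39). Fdps, which makes farnesyl diphosphate, stood at 59.3, 47.4, 43.0, 40.1, 107 and 47.0 CPM against 154, 116, 95.8, 117, 152 and 116 CPM (−1.17 ± 0.09 by edgeR, adjusted p = 1.6e-09). Nsdhl and Mvd followed at −0.85 ± 0.09 and −0.83 ± 0.07. Of 17 interferon response genes tested, 11 fell and 1, Ifitm3 at 0.19, rose (median −0.34). The immunoproteasome subunit Psmb8 averaged 35.9 against 68.5 CPM (−0.93 ± 0.07) and the class I light chain B2m 404 against 710 CPM (−0.87 ± 0.06). Of 12 antimicrobial genes tested, 7 fell and none rose. Defb1, a constitutive defensin, averaged 76.3 ± 12.7 against 166 ± 42.9 CPM, and the protease inhibitor gene Wfdc15b fell by 1.11 ± 0.07.

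Other cell types were read from their summed markers. Summed macrophage markers stood at 51 to 241 CPM in the keratin-high and 55.1 to 212 CPM in the uroplakin-high group, endothelial markers at 1.39 to 13.6 and 2.76 to 17.5 CPM, NK and T markers at 3 to 23.8 and 2.01 to 28.5 CPM, and erythroid markers at 0.908 to 677 and 0.971 to 740 CPM. Of 11 macrophage markers tested 1 rose, Cd68 at 0.34, and none passed among the 1 of 8 endothelial, 2 of 8 NK and T, and 3 of 5 erythroid markers that could be tested. Of 4 sex-linked genes tested, 1 rose, Ddx3y at 0.30. Cells that Scrublet called doublets made up 3.82 to 11.14% of the keratin-high group and 2.34 to 8.74% of the uroplakin-high group.

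Ranked on keratins alone, the calls for Nrarp, Areg and Nr4a1 were lost, with log2 differences of −0.01, 0.14 and 0.05 (edgeR adjusted p = 0.90, 0.058 and 0.50). Thinned to equal depth and ranked anew, 935 of 8417 genes tested rose and 882 fell. Thinning also removes most counts and changes the groups, so this drop does not isolate the part of depth. Without the library block, 456 of 11103 genes rose and 403 fell.

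Basal cells were then compared with the keratin-high group, to ask which of these genes went on rising into the basal layer. Of 10302 genes tested, 720 (6.99%) were higher and 739 (7.17%) lower in basal cells by the quasi-likelihood test of edgeR, Benjamini-Hochberg adjusted. DESeq2 called 8.83% in either direction. These keratin-high sums also entered the comparison of the rank groups, so the 2 sets of values are given side by side only. The classes were chosen by opposite limits on Krt14, Col17a1 and Dlk2, and Ugt2b34 was required in the keratin-high group only. Genes that go with these were read in the same cells. These p-values therefore state how steady a difference was over libraries and not that a gene is independent of the selection.

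Cyp2f2 and Il33 did not rise further. Cyp2f2 stood at 126, 64.0, 79.4, 104, 82.3 and 90.3 CPM in basal cells, overlapping the keratin-high values given above, and the log2 difference of basal cells to the keratin-high group was −0.10 (95% interval −0.29 to 0.09, higher in 3 of 6 libraries). Il33 stood at 116, 165, 363, 205, 308 and 253 CPM, with a difference of −0.05 (95% interval −0.19 to 0.09, edgeR adjusted p = 0.73, higher in 3 of 6). Both intervals leave out a change of the size seen between the rank groups. The other markers were higher in basal cells, by 0.45 for Krt4 and 0.29 for both Aldh3a1 and Igfbp2.

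Among genes that averaged at least 50 CPM, the largest rises were in Upk3bl (1.45 ± 0.10), Ly6a (1.26 ± 0.08), Cdo1, a cysteine dioxygenase of taurine synthesis (1.26), Ajuba, a LIM protein of cell junctions (1.10), Ptges (1.04) and S100a10, an annexin partner (1.02). Ly6a reached 423, 613, 634, 712, 1406 and 509 CPM in basal cells, and Upk3bl 126, 105, 99.5, 83.2, 71.6 and 51.2 CPM. Klf4 was higher by 0.90, Ptgs1 by 0.77, Kcnn4 by 0.69 and Rgs10 by 0.94. The keratin-high group was thus at 0.446 of the basal level for Ly6a, 0.537 for Klf4 and 0.576 for Ptgs1.

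Under the same minimum, the largest falls into basal cells were Sprr2f (−2.0 ± 0.12), Defb1 (−1.41 ± 0.15), Ttc36 (−1.39), Tc2n (−1.10), Fmo5 (−1.08 ± 0.07) and Psapl1 (−1.04), all lower in 6 of 6 libraries. Fmo5 averaged 2455 CPM in the uroplakin-high group, 1370 in the keratin-high group and 641 in basal cells. Of 16 basal and stem-linked genes tested 13 were higher in basal cells and none lower, of 17 adhesion genes 11 were higher and none lower, and of 15 uroplakin and vesicle genes 12 were lower and 1 higher. The first list holds genes that the study reports as high in basal cells of these same data. Of 20 sterol genes, 6 fell further and 1 rose, and of 40 detoxification genes 11 were higher and 10 lower. Over all genes 6.99% were higher and 7.17% lower in basal cells. Of 22 immediate-early genes tested, 15 were higher in basal cells and none lower (median 0.35), and of 22 cell cycle entry genes 15 were higher and 1 lower. Summed myofibroblast markers stood at 314, 369, 245, 823, 272 and 247 CPM in basal cells, above the keratin-high group in 6 of 6 libraries, and of the 6 tested Tpm2 alone passed (0.67 ± 0.06). All 3 erythroid markers tested passed as higher, although their sum was higher in basal cells in 3 of 6 libraries. The part of dissociation, of remaining cycling cells and of other cells' RNA in the basal differences was not tested. Cdkn1a averaged 926 ± 445 CPM in basal cells, 0.65 ± 0.07 above the keratin-high group. With basal cells limited to those with at least 4 UMIs of the basal markers, 255 genes rose and 349 fell.

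Conditions were compared within the keratin-high group, with 2 libraries in each. Of 11511 genes tested, the quasi-likelihood test of edgeR, Benjamini-Hochberg adjusted called 0 (0%) for acute against healthy, 0 (0%) for chronic against healthy and 0 (0%) for acute against chronic. Unadjusted p fell under 0.05 for 294, 628 and 568 genes, and DESeq2 called 4 (0.0347%), 29 (0.252%) and 1 (0.00869%). Leaving out acute 1 alone raised the edgeR count for acute against healthy from 0 to 43 and for acute against chronic from 0 to 28, in a fit where the lone acute library is assumed to vary like the other conditions. The values below are given for genes of lowest p or of fixed lists, and none of them passed the threshold in the main edgeR fit. Which of them passed under the alternatives is not given here. With 2 libraries against 2, separate groups are common: 28.6% of all genes tested did not overlap between acute and healthy, 33.9% between chronic and healthy, and 31.7% between acute and chronic.

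Bax, the pore-forming p53 target, stood at 128 and 145 CPM in the healthy libraries, 259 and 262 after acute CPP, and 265 and 220 after chronic CPP. The log2 differences to healthy were 0.94 ± 0.22 and 0.82 ± 0.22 (SE, edgeR adjusted p = 1 and 0.69). Cdkn1a stood at 410 and 350, 792 and 451, and 769 and 620 CPM, and Ccng1, another p53 target, at 81.7 and 105, 264 and 128, and 201 and 244 CPM. Acute 2 lay nearest to the healthy libraries for both. Over the 21 p53 targets tested the median log2 difference was 0.41 for acute and 0.65 for chronic against healthy, beside 0.00 over all genes. Stromal cells held 239 and 259 CPM of Bax in the healthy libraries and 473 to 801 CPM in the others, so this order was not particular to the urothelium.

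Mgmt, which removes alkyl groups from guanine in DNA, stood at 12.9 and 12.2 CPM in the healthy libraries, 52.1 and 36.5 after acute CPP and 70.9 and 52.1 after chronic CPP (2.28 on the log2 scale for chronic against healthy, edgeR adjusted p = 0.14). Cox6b2, a cytochrome c oxidase subunit gene, stood at 12.1 and 11.7, 69.8 and 51.8, and 43.7 and 44.2 CPM (2.36 for acute against healthy, adjusted p = 0.10 by edgeR). The healthy libraries were lowest for both genes. Stromal cells held 14 and 15 CPM of Mgmt in the healthy libraries and 31.7 to 47.9 CPM in the others (CPM without TMM). Their Cox6b2 stood at 125 and 310 CPM against 418 to 503 CPM, above the urothelial levels, so the low healthy values were not particular to the urothelium.

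Sprr2f stood at 29.5 and 60.2 CPM in the healthy libraries, 96.5 and 139 after acute CPP and 369 and 239 after chronic CPP. The chronic libraries were highest and the healthy ones lowest, with log2 differences of 1.41 ± 0.38 and 2.75 ± 0.40 against healthy (SE, edgeR adjusted p = 1 and 0.23). Lgals3bp and Dcxr were ordered likewise, from 49.7 to 79.3, 95.7 to 106 and 161 to 171 CPM for Lgals3bp and from 111 to 137, 203 to 216 and 240 to 333 CPM for Dcxr. Eef1b2, a translation elongation factor subunit, ran the other way, at 3802 and 3576, 2537 and 2600, and 1527 and 1852 CPM (−1.13 for chronic against healthy, edgeR adjusted p = 0.52). The uroplakin-high group held 67.1 and 257, 269 and 298, and 540 and 495 CPM of Sprr2f (CPM without TMM). Stromal cells held 1246 and 1798, 1171 and 1106, and 648 and 971 CPM of Eef1b2, so these 2 orders were not particular to the keratin-high group. Lgals3bp kept its order in the uroplakin-high group (82 and 60.1, 120 and 103, and 155 and 198 CPM) and in stromal cells. Dcxr kept its order in the uroplakin-high group (135 and 170, 203 and 229, and 299 and 245 CPM). Neither order was therefore particular to the keratin-high group. In stromal cells, Sprr2f overlapped between healthy and acute, and Dcxr between acute and chronic libraries.

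Gstp1, a glutathione transferase with near-identical copies, stood at 67.5 and 75.2, 112 and 357, and 161 and 229 CPM, and acute 2 alone carried the high acute value. The interferon list had medians of 0.26 for acute and 0.57 for chronic against healthy, the detoxification list 0.17 and 0.57, and the sterol list −0.37 and −0.02. The cell cycle entry list had medians of 0.24 and −0.02.

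The alpha-globin gene Hba-a1, which has a near-identical copy, was highest in the healthy libraries, at 167 and 118, 12.9 and 0.545, and 7.31 and 2.36 CPM. The uroplakin-high group showed 198 and 89.3 CPM in the healthy libraries, and stromal cells 80.0 and 430 CPM there against 1.36 to 54.5 CPM elsewhere, so the globin RNA was not particular to these cells. Between acute and chronic, Npm1, a nucleolar chaperone, stood at 1005 and 1400 against 608 and 583 CPM, Tmem176b at 79.5 and 104 against 41.5 and 39.5 CPM, and Cyp4f15, a fatty acid hydroxylase, at 45.3 and 58.3 against 130 and 100 CPM. Stromal cells held 832 to 1380 CPM of Tmem176b, and myofibroblast markers in the keratin-high group had a median of 2.5 for acute against chronic (8 tested, none called), at sums of 196 and 682 against 188 and 167 CPM. The part of stromal RNA in the Tmem176b values was not tested. Pdzk1ip1 and Tuba1c were likewise lower after acute CPP, by 1.16 and 1.74 on the log2 scale, and Rnaset2b, which has a near-identical copy, by 1.3 (edgeR adjusted p = 0.92 for each). These genes, Npm1, Tmem176b and Cyp4f15 were separated in the same direction in the uroplakin-high group and in stromal cells. Npm1 stood at 1093 and 1101 against 540 and 612 CPM in the former (CPM without TMM). The orders were thus not particular to the keratin-high group.

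**Figure D4:**
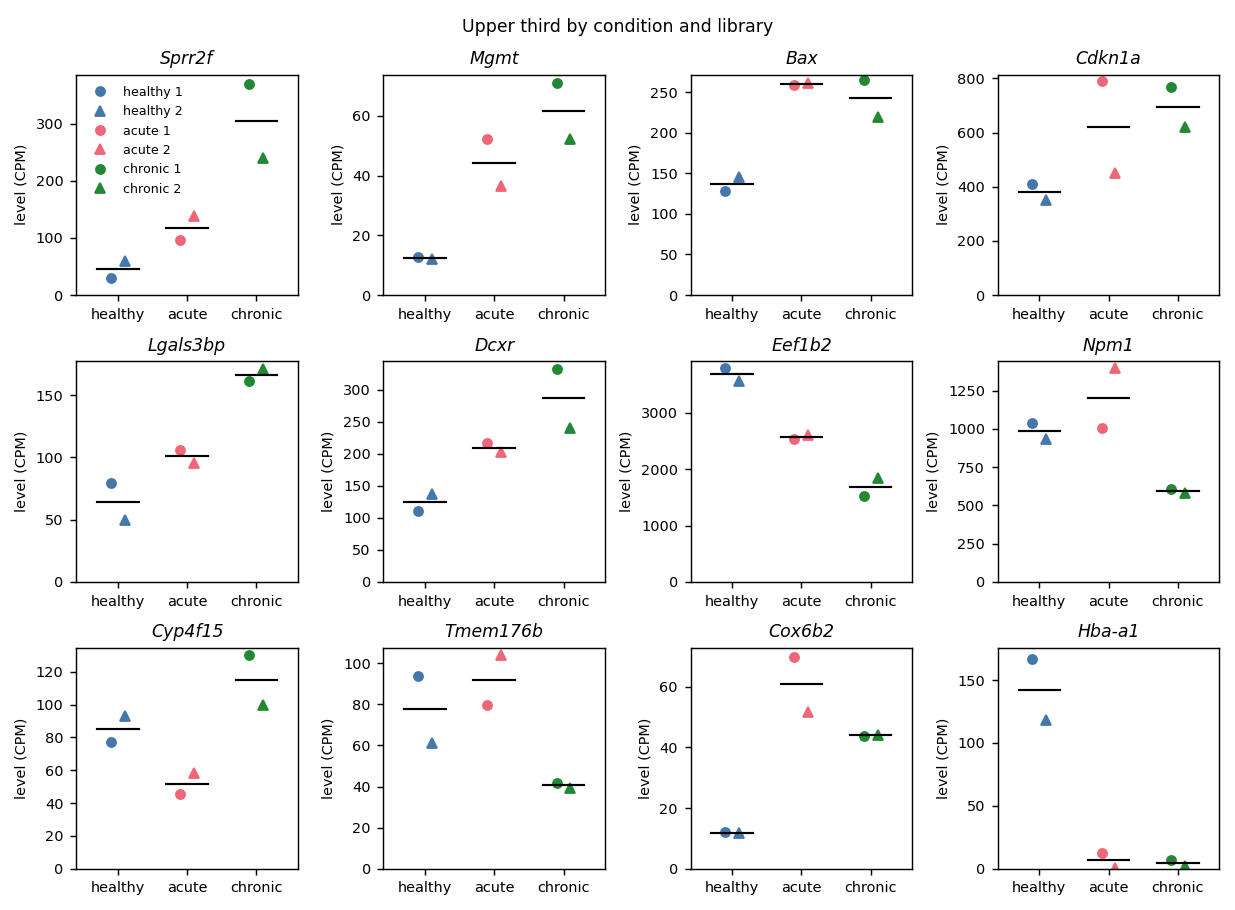
Level of 12 genes in the keratin-high group (CPM, linear axes from 0) by condition, with 1 point per library and a bar at the mean of 2. Healthy libraries are lowest for Mgmt, Bax and Sprr2f, but no gene passed edgeR's adjusted threshold, and 28.6% (acute) and 33.9% (chronic) of all genes tested do not overlap with healthy. The 2 acute libraries lie far apart for Cdkn1a, at 792 and 451 CPM.

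The markers of these cells did not pass the test between conditions. The log2 differences of acute to healthy were −0.10 ± 0.38 for Cyp2f2, −0.10 ± 0.32 for Krt4, 0.20 ± 0.43 for Aldh3a1 and −0.19 ± 0.44 for Igfbp2, and those of chronic to healthy −0.32 ± 0.38, 0.09 ± 0.32, 0.73 ± 0.43 and 0.20 ± 0.44 (SE). With 2 libraries per condition, changes many times their standard error, such as that of Cox6b2 (2.36 ± 0.25), did not pass either. Il33 and Ly6a were lowest in the healthy libraries, at 1.22 ± 0.40 and 1.28 ± 0.40 for acute and 0.77 ± 0.40 and 1.46 ± 0.41 for chronic against healthy (edgeR adjusted p = 1, 1, 0.89 and 0.72).

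Whether CPP changed the contrast between the rank groups was tested by the interaction of rank group and condition. The difference of the keratin-high to the uroplakin-high group changed in 2 of 11103 genes (0.018%) for acute against healthy (1 higher, 0.00901%, and 1 lower, 0.00901%) and in 22 (0.198%) for chronic against healthy (5 higher, 0.045%, and 17 lower, 0.153%) by the quasi-likelihood test of edgeR, Benjamini-Hochberg adjusted. DESeq2 called 0 (0%) and 4 (0.036%), and unadjusted p fell under 0.05 for 501 and 898 genes.

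Cdo1 lost its gradient. It stood at 75.6 and 70.6 CPM in the keratin-high group of the healthy libraries and 18.1 and 22.6 CPM in the uroplakin-high group. After acute CPP the keratin-high group held 77.0 and 48.0 CPM and the uroplakin-high group 44.0 and 31.3 CPM, and after chronic CPP the values were 42.4 and 27.4 CPM against 36.9 and 29.2 CPM. The log2 difference between these groups was therefore 2.03 and 1.62 in healthy, 0.80 and 0.61 in acute and 0.20 and −0.09 in chronic libraries. The change against healthy was −1.15 ± 0.16 for acute (SE, edgeR adjusted p = 0.0037) and −1.79 ± 0.17 for chronic (adjusted p = 1.2e-05 by edgeR). The chronic call held under each alternative run, whereas the acute call was lost under 5 of them while its direction held. The acute change of Cdo1 was −1.14 with DESeq2 (adjusted p = 0.16), −1.22 after thinning, −0.93 without healthy 1, −1.14 without chronic 1 and −0.76 on keratins alone (edgeR adjusted p = 0.19, 0.098, 0.059 and 0.20). Basal cells showed 263 and 174, 135 and 92.1, and 85.9 and 48.2 CPM, in the same order of conditions.

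The gasdermins Gsdmc2 and Gsdmc3 lost contrast between the rank groups. Gsdmc2 stood at 48.3 and 207 CPM in the healthy uroplakin-high group, 226 and 184 after acute and 389 and 442 after chronic CPP, and its keratin-high group held 396 and 824, 695 and 386, and 613 and 603 CPM. The change of the difference in chronic against healthy libraries was −1.93 ± 0.22 for Gsdmc2 and −1.88 ± 0.24 for Gsdmc3 (SE, edgeR adjusted p = 7.1e-05 and 0.00035). With DESeq2 the changes were −1.97 and −2.13 (adjusted p = 0.098 and 0.52), and Gsdmc3 changed by −1.97 without chronic 1 and by −1.79 without chronic 2 (edgeR adjusted p = 0.11 and 0.078), so calls were lost at a similar size.

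Rgs10 had differences of 2.87 and 2.68, 2.18 and 2.09, and 1.52 and 1.54, a change of −1.28 ± 0.17 for chronic against healthy (edgeR adjusted p = 0.00035). Peg3, an imprinted zinc-finger gene, changed by −1.01 ± 0.13 and ended with the rank groups at 66.7 and 108 against 70.2 and 127 CPM. Agrn, a heparan sulfate proteoglycan of basement membranes, changed by −0.91 ± 0.16. Its keratin-high group held 77.7 and 67.3 CPM in healthy and 30 and 46.5 CPM in chronic libraries, and its uroplakin-high group stayed between 24.5 and 32.9 CPM in all libraries.

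For 3 genes with more RNA in the uroplakin-high group, the contrast was smaller in chronic mice. The Psca difference was −2.06 and −1.86 in healthy, −1.73 and −2.0 in acute and −0.79 and −1.25 in chronic libraries, a change of 0.92 ± 0.14 for chronic against healthy (edgeR adjusted p = 0.0034). Ttc36 and Bcl2l14 changed by 0.74 ± 0.13 and 0.73 ± 0.14, to differences near 0 and of −0.38 and −0.32. The gap between the rank groups in the ranking score itself was 2.21 and 2.28 in healthy, 2.26 and 2.41 in acute and 1.89 and 2.12 in chronic libraries, so the score contrast was also smallest in the chronic ones and its part in these changes was not tested. Ranked on keratins alone, the calls for all 3 were lost, at 0.51, 0.42 and 0.43 for Psca, Ttc36 and Bcl2l14 (edgeR adjusted p = 0.079, 0.37 and 0.68), and Agrn was at −0.72 (0.079). Without chronic 1, which leaves 1 chronic library, 3 genes were called lower and none higher. Changes without it were 0.70 for Psca, 0.63 for Ttc36, 0.77 for Bcl2l14, −1.27 for Rgs10 and −0.74 for Agrn (edgeR adjusted p = 0.15, 0.49, 0.73, 0.099 and 0.78), so these calls were lost while each kept its direction. After thinning, Rgs10 stood at −1.01 and Peg3 at −0.65 (edgeR adjusted p = 0.28 and 0.26), and Ttc36 and Bcl2l14 at 0.67 and 0.39 (0.28 and 0.91). DESeq2 and the ranking on uroplakins alone each called only 1 gene higher for chronic against healthy. The calls for Psca, Ttc36 and Bcl2l14 thus did not all hold there. DESeq2 called 3 genes lower, Cdo1 among them, so it did not keep all of the Rgs10, Peg3 and Agrn calls.

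**Figure D5:**
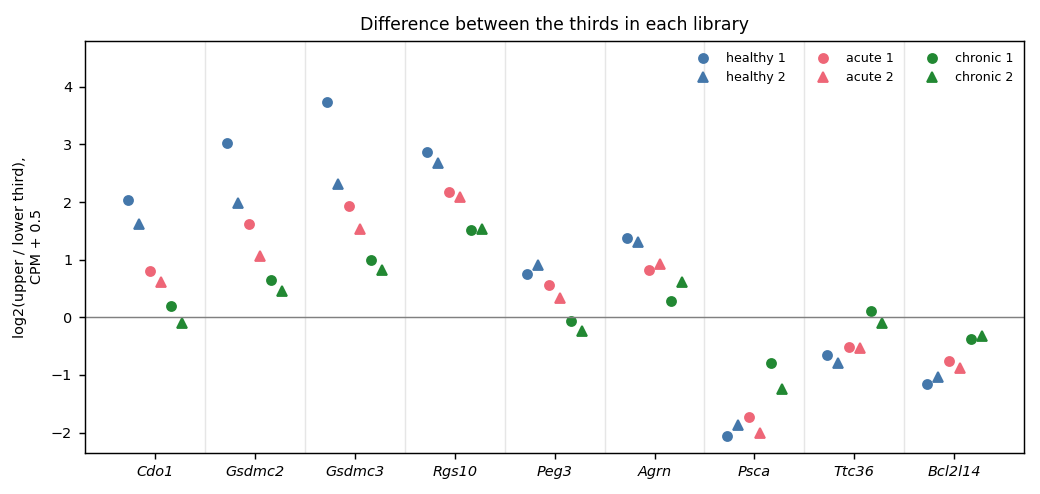
Log2 difference of the keratin-high to the uroplakin-high group (CPM + 0.5) in each library for 9 genes whose difference changed in chronic against healthy mice. Points are libraries and the line at 0 marks equal levels. For Cdo1 the healthy libraries sit at 2.03 and 1.62 and the chronic ones at 0.20 and −0.09, and the acute libraries lie between healthy and chronic for all but Psca.

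The other call for acute against healthy was Hbb-bs, a beta-globin gene, which rested on 1 library. Acute 1 held 34.0 CPM in the keratin-high group and 1.28 CPM in the uroplakin-high group, whereas acute 2 held 0.363 and 0.416 CPM. The change was 3.96 ± 0.47 (edgeR adjusted p = 0.00036) with acute 1 and −0.44 without it, and it also turned negative on uroplakins alone (−0.30). After thinning it was called in the opposite direction (−5.06 ± 0.65, edgeR adjusted p = 7e-10).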

How the data were processed

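Single-cell RNA was measured in 6 libraries, 2 each of healthy, acute and chronic CPP mice. The authors deposited 1 table of raw UMI counts per library. Per the labels, the submitters' processing notes name Cell Ranger and the genome build mm10. The last, incomplete line of the healthy 1 table was dropped, and acute 2 carries a newer gene annotation, so the 14450 genes common to all tables were kept. Mitochondrial (13) and ribosomal protein (99) genes were left out, which left 14338.

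Counts were summed per library and cell class. Sums were tested with edgeR 4.0.16 (R 4.3.3) by TMM normalization, filterByExpr and the quasi-likelihood test with Benjamini-Hochberg adjustment at 0.05. The library was a block between classes and the condition the term within the keratin-high group. Standard errors were derived from the fold change and F. The 24 genes of the selection rule counted toward library sizes and were not tested. Library-wise log2 differences used CPM + 0.5. DESeq2 1.42.0, ranking on keratins or uroplakins alone, thinning to 2000 UMIs per cell, removal of doublets called by Scrublet (scanpy 1.11.5), other limits and leaving out each library served as alternatives. Doublets were otherwise kept. Binomial intervals and shares of cells cover counting error only. The code was tested on simulated data.

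Genes named include the markers, genes the study names, and the 10 strongest in each direction between rank groups among genes of at least 50 CPM (6 in other comparisons). Members of the fixed lists are named as well, and these were not limited to the largest changes of each list. Members, lists and the rule were chosen with earlier results of these data known. The result of 1 list member is not reported here.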

Additional observations from a re-analysis of the deposited data

Results flagged for a closer look

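Among 36 sets of 6 library differences examined, 2 held a library far from the other 5, and chance flags about 1 in 20. For Rgs5, the log2 difference of the keratin-high to the uroplakin-high group was −2.68 in healthy 1 and −1.56 to −1.0 elsewhere. For Tc2n, the difference of basal cells to the keratin-high group was −2.23 in healthy 1 and −1.07 to −0.87 elsewhere.

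The difference between the keratin-high and uroplakin-high groups changed with condition for 11 named results by the interaction test. Against healthy, the acute change was −1.15 for Cdo1 and 3.96 for Hbb-bs, the latter carried by acute 1. The chronic change was −1.79 for Cdo1, −1.93 for Gsdmc2, −1.88 for Gsdmc3, −1.28 for Rgs10, −1.01 for Peg3 and −0.91 for Agrn among genes higher in the keratin-high group of healthy mice. It was 0.92 for Psca, 0.74 for Ttc36 and 0.73 for Bcl2l14 among genes lower there. What set these changes was not tested.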

How the results depend on the processing

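Between the rank groups, 935 of 8417 genes tested rose and 882 fell after thinning and new ranking, and 456 and 403 of 11103 without the library block. Leaving out 1 library gave 2125 to 2407 higher and 2028 to 2325 lower. For basal cells against the keratin-high group, DESeq2 called 446 higher and 464 lower of 10302 genes. Thinning gave 323 and 353 of 7352, and basal cells with at least 4 marker UMIs gave 255 and 349 of 9676. Leaving out 1 library gave 559 to 719 and 564 to 697.

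Between conditions, DESeq2 called 4 higher for acute against healthy, 20 higher and 9 lower for chronic against healthy, and 1 lower for acute against chronic. Thinning called 1 higher and 3 lower for acute and 3 lower for chronic against healthy. Leaving out 1 library gave 0 to 24 higher and 0 to 19 lower for acute, 0 to 0 and 0 to 1 for chronic, and 0 to 15 and 0 to 13 for acute against chronic. With the replicate block, 0 genes were called in each. In the keratin-high group, deviations of the first library from its condition mean were correlated between conditions over 6080 genes. The values were 0.398 for healthy and acute, −0.446 for healthy and chronic, and −0.348 for acute and chronic. Equal numbers thus did not mark libraries that deviated alike in all conditions. Deviations shared by libraries of unequal number were not modelled.

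For the acute interaction, DESeq2 called 0 higher and 0 lower, no low-count filter 3 and 5, and removal of doublets 1 and 2. Thinning called 0 and 5, ranking cut into 4 parts 3 and 4, keratins alone 3 and 1, and uroplakins alone 0 and 3. Leaving out 1 library, which leaves 1 library in its condition, gave 1 to 9 and 0 to 6. For the chronic interaction, DESeq2 called 1 higher and 3 lower, no low-count filter 26 and 37, and removal of doublets 12 and 27. Thinning called 6 and 9, ranking cut into 4 parts 12 and 20, keratins alone 0 and 7, and uroplakins alone 1 and 14. Leaving out 1 library gave 0 to 22 and 3 to 39. The acute change of Hbb-bs reversed to −5.06 with thinning (edgeR adjusted p = 7e-10), −0.44 without acute 1 and −0.30 on uroplakins alone (both adjusted p = 1 by edgeR), and that of Hba-a1 to −7.46 (edgeR adjusted p = 2e-06), −0.10 and −0.34. Without 1 library each, they ranged up to 4.49 and 5.02.

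The difference in intermediate share ranged over −16.4 to −4.51 (acute to healthy), −11.5 to 0.363 (chronic to healthy) and −9.65 to −0.0867 (acute to chronic) percentage points without 1 library, and the chronic one was 0.976 after thinning. Thinning moved the acute to healthy difference from −10.5 to −5.39, and without the limit on Ugt2b34 it was −16.2 and the acute to chronic one −11.1 in place of −4.87 (exact permutation p = 0.333, the smallest possible, in place of 0.667 for the latter). The limit score difference ranged over 0.0656 to 0.461, −0.315 to 0.244 and 0.0191 to 0.579, and the chronic one was 0.243 after thinning. The depth difference ranged from −0.48 to −0.40, where 5 libraries cannot reach 0.05. The causes were not tested. With 2 libraries per condition, even changes of over 2 on the log2 scale did not pass the adjusted threshold.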
